A study of Mus musculus with 8 samples.

Results

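The TGF-β and activin receptors and the SMAD proteins behind them were examined here through 10 genes, which are Tgfbr1, Acvr1b and Acvr1c (type I receptors), Tgfbr2, Acvr2a and Acvr2b (type II receptors), Smad2 and Smad3 (receptor-activated SMADs), Smad4 (the common partner) and Smad7 (the inhibitor). They were taken by gene symbol, and all 10 were found among the 53012 Ensembl genes of the count table. RNA was taken from isolated pancreatic islets at 17 months of age, in 4 βIgf1r and 4 βIgf1rKD animals, with 1 library each. All 8 mice carried Igf1r alleles with exon 3 floxed (Igf1r flox/flox). The βIgf1rKD mice (Ins1-CreERT2+/-, labelled KD) received 5 daily injections of tamoxifen at 0.075 mg/g body weight, and the βIgf1r mice (Ins1-CreERT2-/-, labelled CTRL) received corn oil, so that the effects of Cre, of tamoxifen and of the recombined gene cannot be told apart. Islets were taken 7 days after the last injection. The Cre is meant to act in β-cells, whereas the RNA is that of whole islets. The methods describe the driver both as Ins1-CreERT2 and as a rat insulin promoter, and both sexes were in each group without a mark per mouse.

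Ligands of this family bind a type II receptor kinase, which phosphorylates a type I receptor kinase, and the type I receptor in turn phosphorylates Smad2 and Smad3. These join Smad4, enter the nucleus and change transcription, and Smad7, itself induced by the pathway, blocks the type I receptors. TGF-β ligands use Tgfbr2 with Tgfbr1, also called ALK5. Activins, and several growth and differentiation factors, use Acvr2a or Acvr2b with Acvr1b, also called ALK4, or with Acvr1c, also called ALK7. In the pancreas the pathway is known for its part in endocrine development, in the control of insulin secretion and β-cell replication, and in fibrosis by stellate cells.

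Estimated counts summed to 21634080 to 42391328 a mouse. Igf1r, the targeted gene, was at 46.8 to 60.9 CPM (counts of the gene relative to the library total, scaled by TMM factors) in βIgf1r mice and at 46.9 to 57.9 CPM in βIgf1rKD mice, and the groups overlapped. Its log2 fold change was -0.08 (standard error 0.11, unadjusted p = 0.483 by edgeR's quasi-likelihood test), so a lower Igf1r was not detected in these libraries. The paper reports lower Igf1r mRNA by qPCR and lower IGF1R protein by Western blot in βIgf1rKD islets, in groups of other sizes and ages. The counts cover the whole gene and do not separate its floxed exon. The markers of β-cells took 10.2% to 22.5% of the counts of a library. The βIgf1rKD mice M145, M149 and M150, at 10.2%, 11.7% and 13.9%, lay below every βIgf1r mouse, of which M152 was lowest at 16.2%. The remaining βIgf1rKD mouse, M146, was at 22.1%. By log2 fold change 4 of the 10 β-cell markers were higher and 6 lower in βIgf1rKD islets. All 8 marker lists, of islet and of other cells, were detected, so that the libraries hold a mixture of cells. In such a mixture fewer cells of a type and less RNA per cell cannot be told apart. The share of acinar markers was 1.84% to 13.7% in βIgf1r and 3.91% to 15.5% in βIgf1rKD mice. That of endothelial markers was 0.0476% to 0.0712% and 0.0330% to 0.0498%. Of these 12 of 12 had a negative log2 fold change, 6 of them with an unadjusted edgeR p under 0.05, against 4.12% of all genes. All 12 acinar markers had a positive log2 fold change, with a median of 0.84, and 0 were under that p. Macrophage markers were positive for 9 of 10, 2 of them under that p, and negative for 1. Duct markers were positive for 7 of 8 and negative for 1, with 0 under that p.

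The receptors are close relatives, and reads of one could in principle be assigned to another. No run of 31 bases was shared between the transcripts of any pair of the 10 genes in the GENCODE M21 annotation, so every read of that length from 1 of them differs from all the others. The longest run that Acvr1b and Tgfbr1 share in their coding sequences had 17 bases, and it lies in exon 2 of both, at chr15:101193961-101194001 and chr4:47383778-47383818 of GRCm38 with the flanks shown, on the plus strand. Between Acvr2a and Acvr2b the longest run had 14 bases, in exon 9 of both, at chr2:48897041-48897078 and chr9:119432558-119432595, also on the plus strand. The 4 windows are shown because they hold the longest coding run that these pairs share, which is in capitals.
Acvr1b: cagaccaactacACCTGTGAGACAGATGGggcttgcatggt
Tgfbr1: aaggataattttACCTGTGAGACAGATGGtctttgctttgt
Acvr2a: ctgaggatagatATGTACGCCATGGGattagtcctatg
Acvr2b: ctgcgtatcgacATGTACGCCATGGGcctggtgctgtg

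Among the SMADs, the longest coding run, 23 bases, was shared by Smad2 and Smad3. Sequence shared with genes outside the family was largest for Acvr2a, of whose 31-base runs 7.32% also occur in Orc4, a gene on the opposite strand that overlaps it by 446 bases. For Acvr1c 1.54% occur in the antisense gene Gm13544. The libraries were stranded, but whether strand was used in counting is not given in the sources used here. For Tgfbr2 the share was 1.59%, and for the other 7 genes it was at most 0.567%.

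Levels were compared between genes per length, as CPM per kb of summed exons. Smad4 had the highest level, 11.3 ± 0.806 CPM per kb (SD, n = 8), followed by Tgfbr1 at 7.52 ± 0.795 and Acvr1b at 7.46 ± 0.319 CPM per kb (SD, n = 8). By this length Tgfbr1 and Acvr1b did not differ beyond their spread, since Tgfbr1 was the higher in only 5 of 8 mice. With the longest coding transcript as length, the means were 8.54 for Tgfbr1 and 7.46 for Acvr1b, so their closeness depends on the length used. Acvr2a followed at 4.18 ± 0.454 CPM per kb (SD, n = 8) and Smad2 at 3.01 ± 0.211 CPM per kb (SD, n = 8), each below the gene before it in 8 of 8 mice.

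In the lower part of the order, Smad7 was at 1.88 ± 0.213, Tgfbr2 at 1.35 ± 0.237 and Smad3 at 1.14 ± 0.335 CPM per kb (SD, n = 8). Their ranges over the mice overlapped from each gene to the next, although Smad7 lay above Tgfbr2 in 8 of 8 mice. Acvr2b, at 0.842 ± 0.230 CPM per kb (SD, n = 8), overlapped with Smad3 and with the lowest gene, Acvr1c, at 0.454 ± 0.0610 CPM per kb (SD, n = 8). The median over the 15289 tested genes with a known length was 2.98 CPM per kb, and 5 of the 10 genes lay above it. In every mouse Acvr1b lay above Acvr1c among the type I receptors and Acvr2a above Acvr2b among the type II receptors, and Tgfbr1 lay above its partner Tgfbr2.

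**Figure D1:**
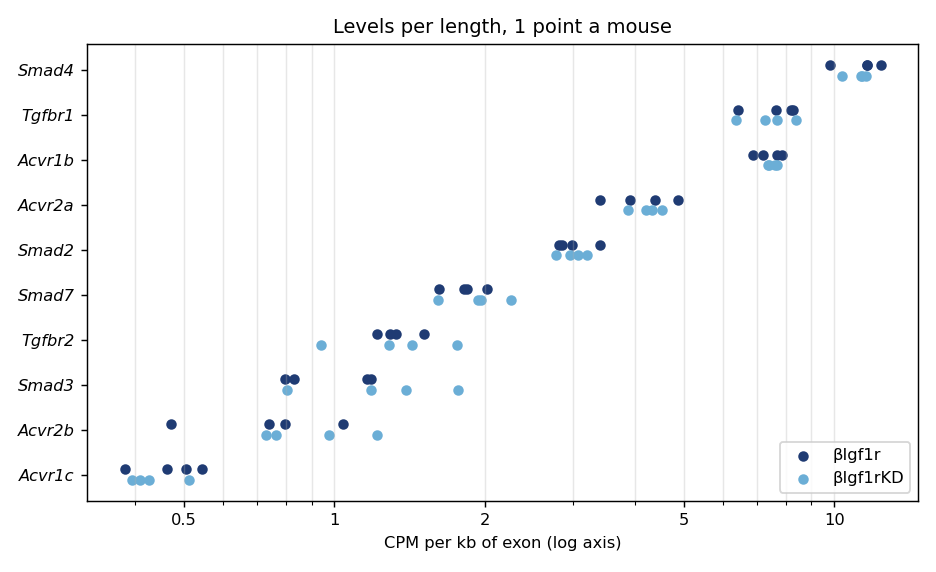
Level of each gene per length, in CPM per kb of summed exons on a log axis, with 1 point for each of the 4 βIgf1r (dark) and 4 βIgf1rKD (light) mice. The genes run from Smad4, with a mean of 11.3, to Acvr1c, with a mean of 0.454, and the points of both groups lie over each other for each gene.

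The question of the study was what a lower Igf1r in β-cells changes in the islet. For these 10 genes no difference between the groups passed the test. All 10 had enough counts to be tested (39 to 2224 estimated counts a mouse), and in edgeR's quasi-likelihood test 0 were under an unadjusted p of 0.05, against 4.12% of the 15474 genes tested. After Benjamini-Hochberg adjustment over all genes 0 of the 10 passed by edgeR, and so did 0% of all genes tested. DESeq2 called 8 genes and limma-voom 1, none of them among the 10. The groups did not overlap for 0 of the 10 genes and for 2.22% of all genes. By log2 fold change 6 were higher and 4 lower in βIgf1rKD islets, with a median of 0.02 over the 10 and 0.01 over all genes tested.

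**Figure D2:**
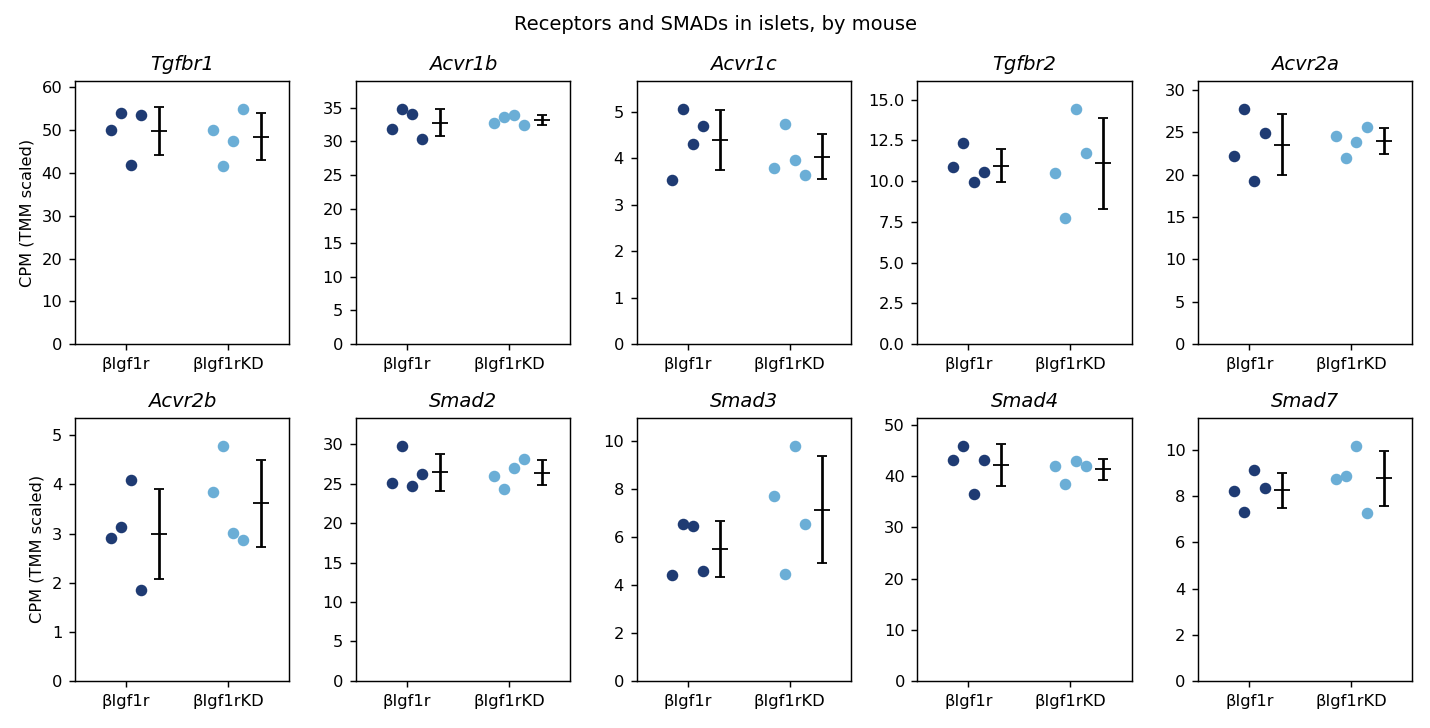
CPM of each gene by mouse, on axes that start at 0, for the 4 βIgf1r (dark) and 4 βIgf1rKD (light) mice, with the mean and SD of each group in black. The groups overlap in every panel, and the points spread most in Smad3 (4.42 to 9.79 CPM) and Acvr2b (1.85 to 4.78 CPM).

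Of the type I receptors, Tgfbr1 (ENSMUSG00000007613, chr4:47353222-47414931, plus strand) is the one that carries TGF-β signals. It was at 49.9, 53.9, 41.9 and 53.5 CPM in βIgf1r mice M148, M151, M152 and M153 and at 50.1, 41.5, 47.5 and 54.9 CPM in βIgf1rKD mice M145, M146, M149 and M150. The lowest mouse of each group, M152 and M146, lay close to each other below the rest, and the other 6 mice mixed. The log2 fold change was -0.04 (standard error 0.11, 95% interval -0.28 to 0.21).

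Acvr1b (ENSMUSG00000000532, chr15:101174067-101213684, plus strand), the main type I receptor of activins, was at 31.9, 34.8, 34.0 and 30.4 CPM in the βIgf1r mice in the same order and at 32.7, 33.6, 34.0 and 32.5 CPM in the βIgf1rKD mice. All βIgf1rKD mice lay inside the range of the βIgf1r mice. Its coefficient of variation over the 8 mice was 4.27%, the smallest of the 10 genes, against a median of 14.3% over all genes tested. The log2 fold change of 0.02 (standard error 0.07) had the narrowest interval of the 10, from -0.14 to 0.17.

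Acvr1c (ENSMUSG00000026834, chr2:58267453-58357895, minus strand), a type I receptor of activin B and related ligands, was low, with as few as 81 estimated counts in a mouse. It was at 3.54, 5.06, 4.31 and 4.69 CPM in βIgf1r mice and at 3.79, 4.75, 3.96 and 3.65 CPM in βIgf1rKD mice. The lowest mouse of all was M148 of the βIgf1r group, and 3 of the βIgf1rKD mice came next. The log2 fold change was -0.12 (standard error 0.16, 95% interval -0.48 to 0.24). It was -0.56 in a fit with endothelial markers as a covariate, the largest of the 10 in that fit, with an unadjusted edgeR p of 0.115. The mean z-score of these markers was 0.063 to 1.29 in βIgf1r and -0.86 to -0.48 in βIgf1rKD mice. Since it did not overlap, that fit cannot separate the score from the group.

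The genes whose log2 CPM followed that of Acvr1c most closely over the 8 mice were Stk10, D830050J10Rik, Jarid2 and Zkscan4, with Pearson's r between 0.908 and 0.924. They were taken as the highest of 15473 genes and are given as a description with no test.

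Of the type II receptors, Tgfbr2 (ENSMUSG00000032440, chr9:116084293-116175360, minus strand) binds TGF-β. It was at 10.9, 12.4, 9.97 and 10.6 CPM in βIgf1r mice and at 10.5, 7.71, 14.4 and 11.7 CPM in βIgf1rKD mice. Both the lowest and the highest mouse, M146 and M149, were in the βIgf1rKD group, whose coefficient of variation was 25.0% against 9.32% in βIgf1r mice. The log2 fold change was 0.02 (standard error 0.17, 95% interval -0.37 to 0.41), and it ran from -0.13 without M149 to 0.16 without M146.

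Acvr2a (ENSMUSG00000052155, chr2:48814109-48903269, plus strand), a type II receptor of activins, was at 22.2, 27.7, 19.3 and 24.9 CPM in βIgf1r mice and at 24.5, 22.0, 23.9 and 25.7 CPM in βIgf1rKD mice. The βIgf1r mice spread on both sides of the βIgf1rKD mice. Its log2 fold change was 0.03 (standard error 0.12, 95% interval -0.23 to 0.29).

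Acvr2b (ENSMUSG00000061393, chr9:119402118-119434995, plus strand), the second type II receptor of activins, was at 2.90, 3.13, 4.09 and 1.85 CPM in βIgf1r mice and at 3.84, 4.78, 3.0 and 2.86 CPM in βIgf1rKD mice. M153 of the βIgf1r group was the lowest, with 39 estimated counts, and M146 of the βIgf1rKD group the highest, with 134. The mean went from 2.99 ± 0.922 to 3.62 ± 0.887 CPM (SD, n = 4 each), a log2 fold change of 0.27 (standard error 0.26) whose interval from -0.32 to 0.86 was the widest of the 10. A difference of the size seen lay within the spread between mice.

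Smad2 (ENSMUSG00000024563, chr18:76241580-76310963, plus strand) was at 25.1, 29.8, 24.7 and 26.2 CPM in βIgf1r mice and at 26.0, 24.4, 27.0 and 28.1 CPM in βIgf1rKD mice. The group means, 26.4 ± 2.33 and 26.4 ± 1.59 CPM (SD, n = 4 each), were alike to the first decimal, and the log2 fold change of -0.003 had a 95% interval from -0.20 to 0.19. Smad4 (ENSMUSG00000024515, chr18:73639009-73703780, minus strand) was at 43.2, 45.9, 36.5 and 43.2 CPM in βIgf1r mice and at 42.1, 38.4, 43.0 and 41.9 CPM in βIgf1rKD mice. Again M152 and M146 were the lowest of their groups, and the log2 fold change was -0.03 (standard error 0.08, 95% interval -0.22 to 0.16).

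Smad3 (ENSMUSG00000032402, chr9:63646767-63757994, minus strand) had the largest log2 fold change of the 10. It was at 4.42, 6.55, 6.44 and 4.60 CPM in βIgf1r mice and at 7.72, 4.46, 9.79 and 6.56 CPM in βIgf1rKD mice. Of the βIgf1rKD mice 3 lay above every βIgf1r mouse, M150 only barely, while M146 lay among the lowest. The mean went from 5.50 ± 1.15 to 7.13 ± 2.23 CPM (SD, n = 4 each), and the log2 fold change was 0.37 with a standard error of 0.24 and a 95% interval from -0.17 to 0.91. The unadjusted p of edgeR's quasi-likelihood test was 0.157, and 0.987 after adjustment over all genes. Without M146 the log2 fold change was 0.54, with an unadjusted p of 0.0262, and without M149 it was 0.18. It was 0.12 in a fit with acinar markers as a covariate. With endothelial markers, whose score did not overlap between the groups, it was -0.11.

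Smad7 (ENSMUSG00000025880, chr18:75367529-75395935, plus strand), the inhibitory SMAD and itself a target of the pathway, was at 8.22, 7.31, 9.15 and 8.34 CPM in βIgf1r mice and at 8.75, 8.89, 10.2 and 7.28 CPM in βIgf1rKD mice. The highest mouse, M149, and the lowest, M150, were both in the βIgf1rKD group. The log2 fold change was 0.09 (standard error 0.13, 95% interval -0.20 to 0.37).

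**Figure D3:**
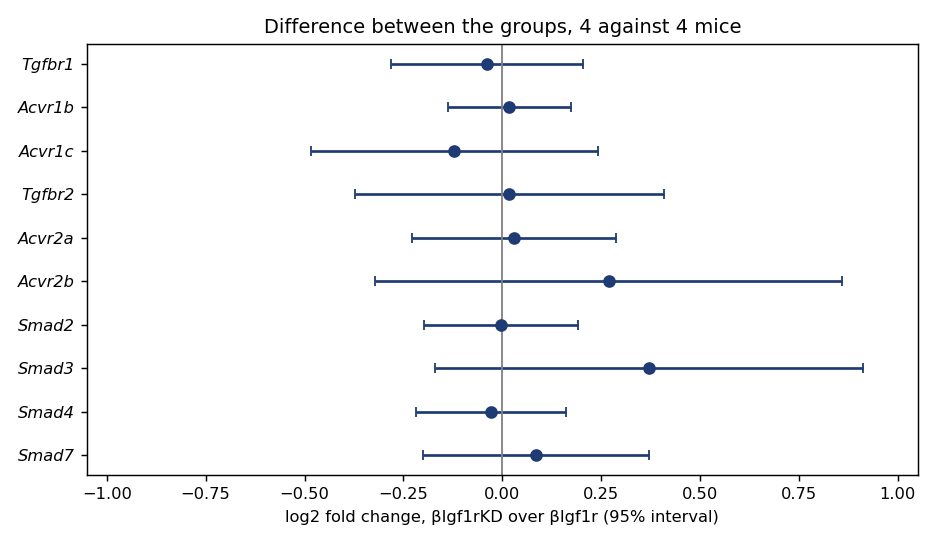
Log2 fold change of each gene in βIgf1rKD over βIgf1r islets from edgeR's quasi-likelihood fit, with its 95% interval, for 4 against 4 mice. All 10 intervals include 0, and 8 of them lie within 0.5 on either side, with Acvr2b and Smad3 reaching further.

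Ratios of 2 genes within a mouse do not depend on how the libraries were scaled, and 5 ratios of counts per kb were compared. The ratio of Smad3 to Smad2 was 0.279, 0.348, 0.414 and 0.278 in βIgf1r mice and 0.471, 0.290, 0.575 and 0.369 in βIgf1rKD mice. The groups overlapped through M146 and M150, and the log2 ratio differed by 0.34 (standard error 0.26, two-sided p = 0.229 by exact permutation, and 0.667 once adjusted for 5 ratios). Acvr1c was at 0.0528 to 0.0734 of Acvr1b over all mice, and the log2 ratio differed by -0.14 (standard error 0.13, exact permutation test, p = 0.314, adjusted p = 0.667). The ratio of Acvr2a to Acvr2b ran from 3.17 to 9.30 and its log2 value differed by -0.26 (standard error 0.38, exact permutation test, p = 0.543, adjusted p = 0.679).

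The ratio of Tgfbr2 to Tgfbr1 ran from 0.148 in M146 to 0.242 in M149, with a difference of 0.03 in the log2 ratio (standard error 0.16, exact permutation test, p = 0.943, adjusted p = 0.943). Smad7 relative to Smad3 was 1.27 to 2.44, and the log2 ratio differed by -0.26 (standard error 0.28, exact permutation test, p = 0.400, adjusted p = 0.667). In the Smad7 to Smad3 ratio M146, at 2.44, lay apart from the other βIgf1rKD mice at 1.27 to 1.39. None of the 5 ratios separated the groups, and the smallest p that 4 against 4 mice allow is 0.0286.

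The 10 genes were set against each other in pairs across the mice. Pearson's r of log2 CPM was positive for 27 of the 45 pairs. For 7 pairs the exact permutation p was under 0.05 before adjustment, for 0 after it. How many pairs of all genes reach that p in these libraries was not examined. The 7 are therefore not read as particular to these genes. The pair with the highest r was Acvr2a and Smad2, with r = 0.870 and Spearman's rho = 0.905 over 8 mice (exact permutation p = 0.00499 and 0.00456, adjusted over 45 pairs, p = 0.0844 and 0.103). Without the 2 mice farthest from the median of Acvr2a r was 0.871, and with the group means removed 0.879. Acvr2a and Tgfbr1 gave r = 0.850 and rho = 0.929 (exact permutation p = 0.00503 and 0.00223, adjusted p = 0.0844 and 0.100), and 0.799 without the 2 mice farthest in Acvr2a.

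With Smad4, Acvr2a gave r = 0.863 and rho = 0.595 (exact permutation p = 0.00563 and 0.132, adjusted p = 0.0844 and 0.421). Here r was 0.453 without these 2 mice, and so that relation rests on them. For Tgfbr1 with Smad4 r was 0.846, and 0.215 without the 2 mice farthest in Tgfbr1. The highest values were thus among Acvr2a, Tgfbr1, Smad2 and Smad4, a set picked from these same values and not tested as a set. Acvr2b went the other way from Tgfbr1, with r = -0.746 and rho = -0.690 (exact permutation p = 0.0294 and 0.0694, adjusted p = 0.228 and 0.421). For Acvr1c r lay between -0.280 and 0.267 with the other genes.

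**Figure D4:**
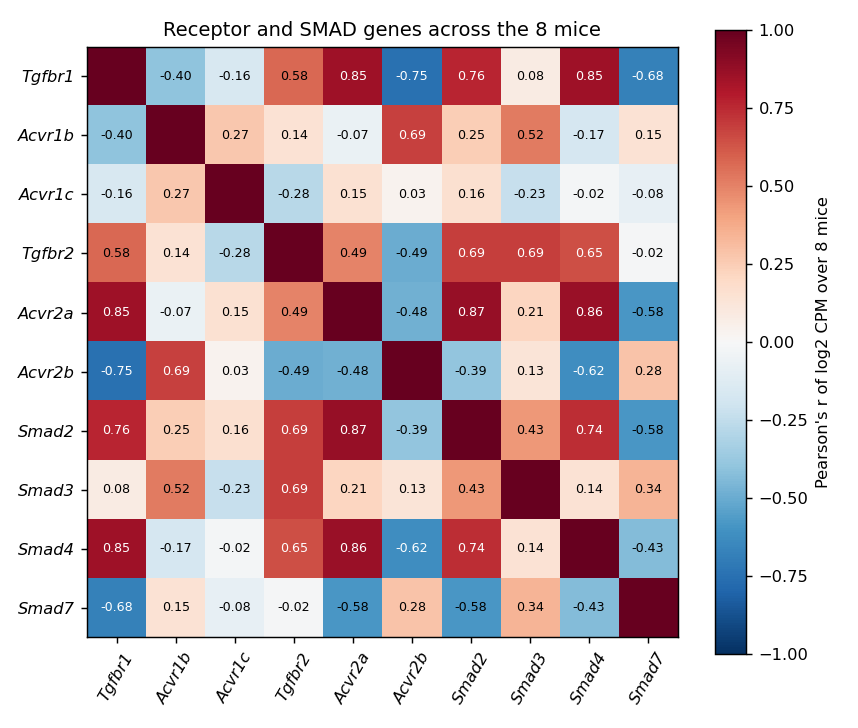
Pearson's r of log2 CPM over the 8 mice for each pair of the 10 genes, from blue (negative) to red (positive). Tgfbr1, Acvr2a, Smad2 and Smad4 have values from 0.74 to 0.87 with each other, and Acvr1c is pale throughout.

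Since the libraries hold several kinds of cells, the 10 genes were set beside the mean z-score of 5 marker lists, which makes 50 relations. Of these 4 had an exact permutation p under 0.05 before adjustment and 0 after it, and all 4 were of Smad3 or Tgfbr2. The same share over all genes tested was not examined. Smad3 was low where β-cell markers were high, with r = -0.945 and rho = -0.857 over 8 mice (exact permutation p = 0.00134 and 0.0107, adjusted over 50 relations, p = 0.0670 and 0.256). The value was -0.897 without the 2 mice farthest in the score and -0.946 with the group means removed. M148, M153 and M146, the 3 mice with the least Smad3, had β-cell scores of 0.48 to 0.66, and the other 5 had scores of -0.68 to -0.02, so that the mice lay on both sides of a gap. Smad3 with the macrophage score gave r = 0.836 and rho = 0.833 (exact permutation p = 0.00345 and 0.0154, adjusted p = 0.0862 and 0.256), and 0.741 without the 2 mice farthest in the score. With the acinar score it gave r = 0.700 and rho = 0.810 (exact permutation p = 0.0552 and 0.0218, adjusted p = 0.552 and 0.272).

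Tgfbr2 was high where the markers of stellate cells and pericytes were high, with r = 0.887 and rho = 0.833 (exact permutation p = 0.00670 and 0.0154, adjusted p = 0.112 and 0.256), and 0.895 without the 2 mice farthest in the score. M146 had the lowest score, -1.43, and the lowest Tgfbr2, and M149 the highest of both, with a score of 1.18. With the macrophage score r was 0.772 and rho 0.571 (exact permutation p = 0.0387 and 0.151, adjusted p = 0.484 and 0.777), and r was 0.533 without the 2 mice farthest in that score. The genes most like Tgfbr2 over the mice were Rab32, Eda2r, Msr1 and Vgll3, with r between 0.976 and 0.987, again chosen as the highest and not tested. They were themselves low, with at most 4.05 CPM, and Msr1 went down to 0.0714 CPM. The part of any cell type in the levels of Smad3 or Tgfbr2 was not tested.

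**Figure D5:**
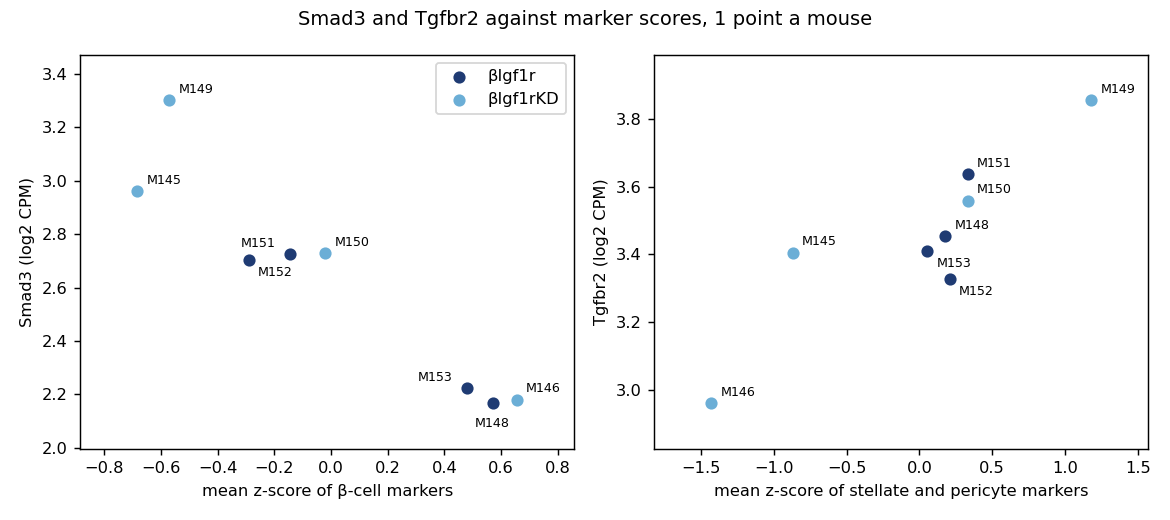
Log2 CPM of Smad3 against the mean z-score of the β-cell markers (left) and of Tgfbr2 against that of the stellate and pericyte markers (right), with 1 named point for each of the 4 βIgf1r (dark) and 4 βIgf1rKD (light) mice. Smad3 goes down to the right with r = -0.945, Tgfbr2 goes up with r = 0.887, and mice of both groups lie along the same path.

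The ligands were the next step out in the pathway, and 8 of the 13 listed had enough counts to be tested. Of these 1 was higher and 1 lower in βIgf1rKD islets with an unadjusted edgeR p under 0.05, against 4.12% of all genes tested. After adjustment 0 passed, and the median log2 fold change was -0.03. Inhba, the subunit of activin A, was at 1.86, 1.67, 1.5 and 2.18 CPM in βIgf1r mice and at 0.936, 0.50, 1.35 and 1.48 CPM in βIgf1rKD mice. The groups did not overlap, the lowest βIgf1r mouse being just above the highest βIgf1rKD mouse, and the log2 fold change was -0.75 (standard error 0.33, unadjusted p = 0.0485, adjusted p = 0.987). Gdf3, with 5 to 61.2 estimated counts, differed by 1.29 on the log2 scale (standard error 0.57, unadjusted p = 0.0466, adjusted p = 0.987), with M151 of the βIgf1r group within the range of the βIgf1rKD mice. Neither ligand call was left without M148, M152, M153, M145 or M146, where 0 of the 8 had an unadjusted p under 0.05. Without M151 1 was left. With endothelial markers as a covariate, whose score did not overlap between the groups, 0 were left.

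Per length the highest ligand genes were Inha, the inhibin α subunit that opposes activin, at 9.64 CPM per kb, and then Tgfb1, at 1.17 CPM per kb, and Inhbb, the subunit of activin B, at 1.16 CPM per kb. The order of Tgfb1 and Inhbb is not settled by these values, since their mice overlapped and M149 was far above the others in Tgfb1. Inha differed by -0.05 (standard error 0.15) and Tgfb1 by 0.44 (standard error 0.22) on the log2 scale, and Inhbb by -0.01 (standard error 0.38). Tgfb1 was at 4.31 to 5.62 CPM in βIgf1r mice and at 5.20 to 10.4 CPM in βIgf1rKD mice, with M149 the highest. Inhbb was at 2.84 to 6.45 CPM and at 2.89 to 8.61 CPM, and the groups overlapped for all 3 genes. Inhbc, Inhbe, Mstn, Nodal and Gdf1 stayed at 12 counts or fewer in every mouse and were not tested.

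Of 19 genes that control ligands and receptors outside the cell 15 were tested. At an unadjusted edgeR p under 0.05 2 were lower and 0 higher, against 4.12% of all genes tested. After adjustment 0 passed, and the median log2 fold change was -0.08. Bambi, a decoy receptor without a kinase, was at 34.3, 28.4, 30.4 and 44.98 CPM in βIgf1r mice and at 28.4, 23.6, 20.7 and 28.6 CPM in βIgf1rKD mice. Only M151 of the βIgf1r group reached into the range of the other group, and the log2 fold change was -0.45 (standard error 0.16, unadjusted p = 0.0199, adjusted p = 0.987). Tgfbr3, betaglycan, which presents ligands to the receptors, was at 15.3, 18.6, 15.1 and 16.5 CPM in βIgf1r mice and at 12.9, 13.1, 11.97 and 15.2 CPM in βIgf1rKD mice. It overlapped only through M150 and M152, and differed by -0.30 on the log2 scale (standard error 0.11, unadjusted p = 0.0199, adjusted p = 0.987). Without M151, M153 or M149 1 of the 15 genes was lower at an unadjusted p under 0.05, and without M148 3 were. In a fit with endothelial markers as a covariate 0 of the 15 had an unadjusted p under 0.05, and the endothelial score itself did not overlap between the groups, so their parts cannot be told apart. Per length Eng, an endothelial co-receptor, and Ltbp4, a latent TGF-β binding protein, were the highest, at 11.7 and 7.35 CPM per kb, with log2 fold changes of -0.16 (standard error 0.11) and -0.23 (standard error 0.18). Fst, the secreted activin antagonist follistatin, had 0 to 4 counts a mouse.

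Inside the cell, 14 of 15 listed regulators of the SMADs and receptors were tested. Hgs, an endosomal protein that helps present Smad2 to receptors, was the 1 gene at an unadjusted p under 0.05, against 4.12% of all genes. It was at 44.6, 45.1, 46.0 and 42.8 CPM in βIgf1r and at 47.3, 56.7, 49.5 and 48.7 CPM in βIgf1rKD mice. The groups did not overlap, and the log2 fold change was 0.18 (standard error 0.07, unadjusted p = 0.0388, adjusted p = 0.987). Fkbp1a, which binds type I receptors and keeps them inactive, had the highest level per length, 39.9 CPM per kb, above Hgs at 16.0 CPM per kb, and its log2 fold change was 0.01 (standard error 0.08). The median over the 14 was 0.01. The list held 0 genes with an unadjusted p under 0.05 by limma-voom, with no filter, with endothelial markers as a covariate, and without M148, M151, M153, M149 or M150.

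In the BMP branch, which shares Smad4 but works through other receptors and SMADs, all 12 genes were tested. Of these 0 had an unadjusted p under 0.05, against 4.12% of all genes tested. Without M151 or M152 1 was under that p, where 749 of 15625 and 1114 of 15714 genes tested were. Bmpr1a and Smad5 were the highest per length, at 11.3 and 5.43 CPM per kb, with log2 fold changes of -0.06 (standard error 0.11) and -0.07 (standard error 0.09). Of 18 genes known as targets of TGF-β in other cells 0 had an unadjusted p under 0.05, against 4.12% of all genes. By log2 fold change 10 were higher and 8 lower, with a median of 0.06. That direction rests on single mice, since without M149 7 were higher and 11 lower with a median of -0.18, and without M150 also 7 and 11 with a median of -0.05 and 1 lower at an unadjusted p under 0.05. Without M146 the median was 0.19, and 2 were higher at an unadjusted p under 0.05. Over all genes tested, 960 of 15680 were under that p without M146 and 854 of 15688 without M150. The highest per length were Col4a1, a collagen of basement membranes, at 14.1 CPM per kb, and Itgb5, at 13.3 CPM per kb, with log2 fold changes of -0.06 (standard error 0.15) and 0.12 (standard error 0.11).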

How the data were processed

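Islets of single mice were sequenced as stranded mRNA libraries. The table the authors deposited gives the estimated count of every gene in each library, without scaling between libraries. The submitters' processing notes name fastp, kallisto and GRCm38. Versions, the annotation and how transcripts were summed to genes are not given in the sources used here. Identifiers were joined to symbols (51906 of 53012) and to GENCODE M21 gene models on GRCm38.

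Counts were rounded, filtered by filterByExpr of edgeR 4.0.16 (minimum count 10 in 4 mice, minimum total 15; 15474 genes kept), scaled by TMM and compared by the quasi-likelihood test in R 4.3.3, with Benjamini-Hochberg adjustment over all genes. Intervals are 95% intervals from the fit. Log2 CPM used a prior count of 2. CPM per kb divides by the summed exons of all transcripts. Ratios and correlations were tested by exact permutation, over 70 assignments for ratios. Marker scores are mean z-scores of log2 CPM over the 8 mice.

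Total counts ran from 21634080 to 42391328. How much of the spread between mice is counting error was not tested, and it differs from gene to gene. Counts of mice of 1 group differed with a chi-square of at least 78.4 per degree of freedom, so no pair within a group was 1 library deposited 2 times (pairs across groups were not compared). The scripts were tested on simulated counts.

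The genes and lists were chosen with earlier results of these data known. Named are the 10 genes and, of each pathway list, genes with an unadjusted p under 0.05 and the 2 highest per length, and for Acvr1c and Tgfbr2 the 4 genes most like them. Inhbb was added after its values were seen. The alternatives were DESeq2 1.42.0, limma-voom (limma 3.58.1), RLE scaling, 2 other count filters, acinar, endothelial and Xist covariates, an exact permutation test of log2 CPM, a pseudocount of 0.5 in ratios, group means removed and each mouse left out.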

Additional observations from a re-analysis of the deposited data

Results flagged for a closer look

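In 2 of 30 sets of 4 mice, from the 10 genes and the 5 ratios in each group, the highest mouse stood apart from the remaining 3. Chance alone does so in about 1 of 20 such sets. Both were M146 of the βIgf1rKD group. Its log2 ratio of Smad7 to Smad3 was 1.29 against 0.35 to 0.47 in the other 3 mice, a gap of 0.868 of the range. Its log2 ratio of Acvr1c to Acvr1b was -3.89 against -4.23 to -4.17, a gap of 0.837 of the range. The same mouse had the lowest share of acinar markers in its group, 3.91% of counts, and the highest β-cell marker score of the 8 mice, 0.66. What part these had in the ratios was not tested.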

How the results depend on the processing

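No paired analysis was possible because no mouse number occurs in both groups. For the 10 genes 0 passed an unadjusted or adjusted p of 0.05 under every alternative that kept all mice. With a mouse left out 0 to 1 passed the unadjusted p, Smad3 without M146, and 0 passed the adjusted p. Some differences changed sign, among them those of Smad3 and Acvr2b, at 0.37 and 0.27 in the main fit. The endothelial score did not overlap between the groups, so a fit with it cannot separate the score from the group. With the endothelial score as a covariate the log2 fold changes were -0.56 for Acvr1c (unadjusted p 0.115 by edgeR), which kept its sign, -0.16 for Smad2 and 0.18 for Smad7, which also kept theirs, and, with the sign changed, -0.098 for Acvr1b, -0.17 for Acvr2a, -0.11 for Acvr2b and -0.11 for Smad3, with the acinar score -0.069 for Tgfbr2 and 0.00018 for Smad4, and with Xist -0.026 for Acvr2a. Tgfbr2 was at -0.018 by limma-voom and -0.012 in log2 CPM, and Smad2 at 0.0018 by limma-voom.

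With each mouse left out the log2 fold change ran from -0.020 to 0.048 for Acvr1b, -0.055 to 0.12 for Acvr2a, -0.11 to 0.029 for Tgfbr1, -0.13 to 0.16 for Tgfbr2, -0.037 to 0.059 for Smad2 and -0.093 to 0.014 for Smad4, and the log2 ratio of Tgfbr2 to Tgfbr1 differed by -0.12 to 0.12. Sign was kept, but not size, by Acvr1c, from -0.22 without M148 to -0.047 without M151, Acvr2b, from 0.097 without M153 to 0.45 without M152, Smad3, from 0.18 without M149 to 0.54 without M146, and Smad7, from 0.0061 without M149 to 0.17 without M150. The other 4 ratios did likewise, with log2 differences of -0.23 to -0.068 for Acvr1c to Acvr1b, -0.52 to -0.016 for Acvr2a to Acvr2b, 0.18 to 0.51 for Smad3 to Smad2 and -0.48 to -0.16 for Smad7 to Smad3.

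Over all genes the count with an unadjusted p under 0.05 was 637 of 15474 tested, and 1098 of 27738 with no filter. Of the same 15474 genes it was 382 with the acinar score, 352 with the endothelial score and 1143 with Xist. With a mouse left out it ran from 383 of 15630 without M148 to 1114 of 15714 without M152. It was 402 of 15723 without M153 and 960 of 15680 without M146. After adjustment it was 0 by edgeR, also with any mouse left out, 8 by DESeq2 and 1 by limma-voom. With the endothelial score the lists held 0 ligands, 0 extracellular and 0 intracellular regulators and 1 gene of the BMP branch with an unadjusted p under 0.05. The causes were not tested. Sex was not marked per mouse. The smallest counts were those of Acvr2b, down to 39 in a mouse, and Acvr1c, down to 81.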
